A study of Mus musculus with 6 samples.

Results

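The 9 genes described here encode the R-spondin system, which sets how much Frizzled receptor stands at the cell surface: the secreted ligands Rspo1, Rspo2, Rspo3 and Rspo4, their receptors Lgr4, Lgr5 and Lgr6, and the membrane ubiquitin ligases Rnf43 and Znrf3. They were chosen by name, and for each the probe set with that single gene symbol was taken, or the brighter one where there were several. All 9 were measured, out of 22180 genes with a single symbol. The data are 6 microarrays, each of RNA from entire mouse lung buds dissected at E12.5, a stage of airway branching. The 3 control lungs were Shh cre/+, with 1 Cre recombinase allele at the Shh locus. The 3 mutant lungs were Fzd2Flox/Flox; Shh cre/+, so both groups carried the same Cre allele and only the mutants carried the floxed Fzd2 alleles. Shh is active in the lung epithelium, and the stated aim was to find genes controlled by the receptor Fzd2 in that tissue. Deletion is therefore limited to cells with Shh-driven Cre, whereas the arrays measured epithelium, mesenchyme, vessels and blood together. The labels call the arrays biological replicates. They do not say whether embryos were pooled.

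Rnf43 and Znrf3 attach ubiquitin to Frizzled receptors, which are then taken up and degraded, so that the cell responds less to Wnt. An R-spondin binds an Lgr receptor and 1 of these ligases together and clears the ligase from the membrane, which leaves more Frizzled in place. Lgr5, Rnf43 and Znrf3 are also known as targets of beta-catenin signalling in several tissues, so the system is a feedback loop as well as a control of receptor number. In the developing lung, Rspo2 is known as a mesenchymal ligand needed for normal branching, and Lgr5 is known as a gene of epithelial stem cells in the gut and other organs.

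Lgr5, Rnf43 and Znrf3 had lower values on every mutant array than on any control array, and Rspo2 and Rspo3 had higher values on every mutant array than on any control array. The mutant means were 71.8% of the control mean for Lgr5, 80.1% for Rnf43, 81.1% for Znrf3, 120% for Rspo2 and 132% for Rspo3. The groups of the other 4 genes, Rspo1, Rspo4, Lgr4 and Lgr6, overlapped. None of the 9 genes passed limma's threshold of an adjusted p under 0.05 over all genes, where 0.0631% of all genes did (14 of 22180), 0.0451% lower and 0.018% higher in mutants. Lower values without overlap were found in 3 of 9 genes, against 8.83% of all genes, and higher values without overlap in 2 of 9, against 10.6%. At an unadjusted limma p under 0.05 there were also 3 lower and 2 higher genes of 9, against 5.15% and 7.34% of all genes. These shares describe a set of 9 genes and were not tested. The median log2 difference of the set, mutant minus control, was -0.16, beside 0.01 over all genes.

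**Figure D1:**
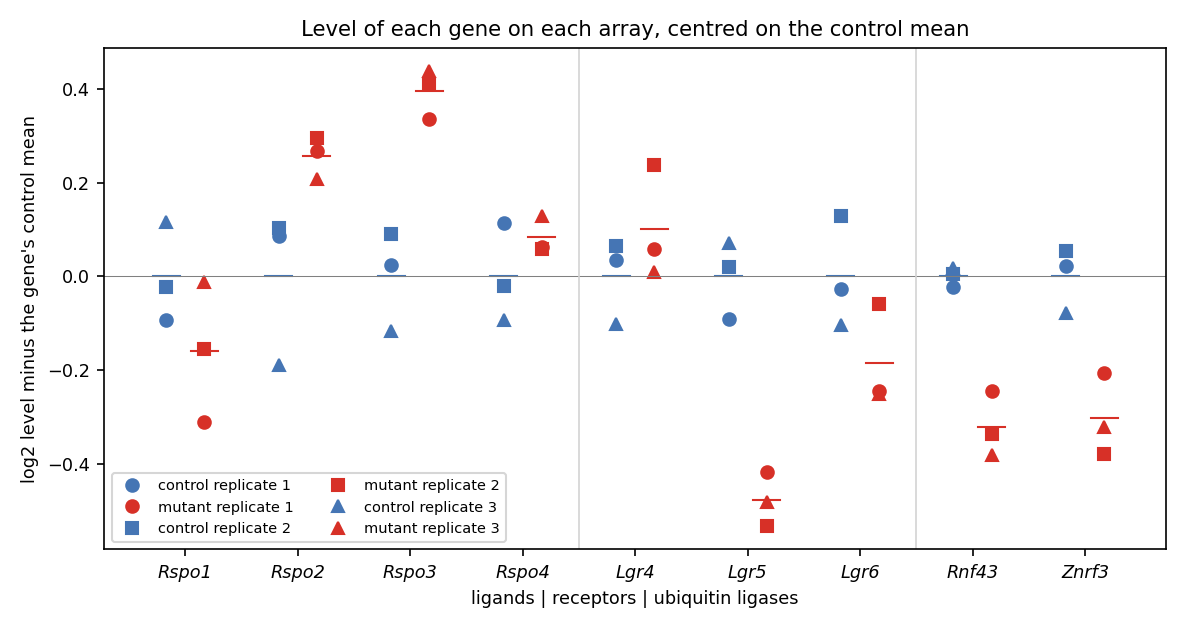
Log2 level of each gene on each array minus that gene's mean in the control arrays (vertical axis, log2 units) for the 4 ligands, 3 receptors and 2 ligases (horizontal axis). Blue marks are control and red marks mutant arrays, symbols are replicates 1 to 3, and short lines are group means. Rspo2 and Rspo3 mutant marks lie above all their control marks, and those of Lgr5, Rnf43 and Znrf3 lie below.

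Fzd2, the gene targeted in the mutants, was read first as a check of the labels. Controls 1 to 3 had log2 values of 9.57, 9.82 and 9.75, and mutants 1 to 3 had 9.67, 9.07 and 9.54. The array labelled mutant replicate 1 therefore lay within the control range. The log2 difference was -0.29 (SE 0.15, n = 3 and 3), and limma gave an adjusted p of 0.475. With mutant replicate 2 left out, the log2 difference was -0.10. The sources used here do not place the Fzd2 probe set relative to the floxed segment, and unrecombined mesenchyme was part of each sample. Some arrays also stood apart in other genes. Control replicate 1 had a mean of 8.99 over 14 genes of adult small intestine, against 6.56 to 6.69 on the other arrays, and mutant replicate 2 a mean of 9.78 over 8 adipose genes, against 6.98 to 7.58. Mutant replicate 1 had a mean of 9.14 over 7 heart muscle genes, against 8.04 to 8.10. Array medians over all probe sets ran from 7.29 to 7.32, and the number of arrays limits the precision of every value below.

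Among the ligands, Rspo3 showed the largest difference. Rspo3 is a secreted activator known from vessels and mesenchyme of several organs. Control arrays 1 to 3 read 8.14, 8.21 and 8.00 on the log2 scale, and mutant arrays 1 to 3 read 8.45, 8.53 and 8.56. Each mutant array was higher than the highest control. The log2 difference of 0.40 (SE 0.07, n = 3 and 3) put the mutant mean at 132% of the control mean, with a 95% interval of 0.24 to 0.55 on the log2 scale. Limma gave an unadjusted p of 0.000389 and an adjusted p of 0.111, so the difference did not pass over all genes. The two-sided exact permutation test over the 6 arrays gave p = 0.1, which is the smallest that 3 arrays against 3 can give.

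Rspo2, the ligand whose loss is known to disturb branching of the lung, had log2 values of 10.86, 10.88 and 10.59 on control arrays 1 to 3. Mutant arrays 1 to 3 had 11.04, 11.07 and 10.98, again all above the controls, although the gap between the highest control and the lowest mutant array was small beside the spread of the controls. The log2 difference was 0.26 (SE 0.08, 95% interval 0.06 to 0.45, n = 3 and 3). Limma's adjusted p was 0.314 and the exact permutation p was 0.1. Control replicate 3 was the lowest of the controls, and without it the log2 difference was 0.16.

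Rspo1 and Rspo4 did not separate the groups. The values of Rspo1, a ligand best known from the developing gonad, were 9.88, 9.95 and 10.09 on the log2 scale in the controls and 9.66, 9.82 and 9.96 in the mutants. Its log2 difference was -0.16 (SE 0.09, limma adjusted p = 0.492), with an interval of -0.36 to 0.05 that includes 0. The values of Rspo4, a ligand known for its role in nails, were 6.92, 6.79 and 6.72 in the controls and 6.87, 6.87 and 6.94 in the mutants. Its log2 difference was 0.08 (SE 0.06, limma adjusted p = 0.607), with an interval of -0.06 to 0.23. The ligands therefore did not share 1 direction: Rspo2, Rspo3 and Rspo4 had higher mutant means and Rspo1 had a lower one.

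Lgr5 had the smallest p of the 9 genes. It encodes an R-spondin receptor and is a marker of epithelial stem cells. On its brighter probe set control arrays 1 to 3 had log2 values of 8.06, 8.17 and 8.22, and mutant arrays 1 to 3 had 7.73, 7.61 and 7.67. The highest mutant array was below the lowest control. The log2 difference of -0.48 (SE 0.06, 95% interval -0.62 to -0.34, n = 3 and 3) put the mutant mean at 71.8% of the control mean. Limma ranked it at place 26 of 22180 genes by p, with an unadjusted p of 6.51e-05 and an adjusted p of 0.0556, just outside the threshold. In whole lungs, fewer cells with Lgr5 RNA and less Lgr5 RNA per cell cannot be told apart, and the same holds for the other genes here.

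A second probe set carries the symbol Lgr5 alone, and it ran the other way. Its log2 values were 5.62, 5.56 and 5.56 in the controls and 5.67, 5.82 and 5.94 in the mutants, so each mutant array was higher. The log2 difference was 0.23 (SE 0.08, limma adjusted p = 0.341 over all 41345 probe sets). This probe set had a control mean of 5.58, below the array medians of 7.29 to 7.32, where the lowest value on any array was 3.55. The brighter probe set had a control mean of 8.15. Levels of different probe sets are not on a common scale, and the sources used here do not say which part of the Lgr5 transcript each reads. The mean of both gave a log2 difference of -0.12 (limma adjusted p = 0.381), so the value for Lgr5 depends on the choice of probe set.

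**Figure D2:**
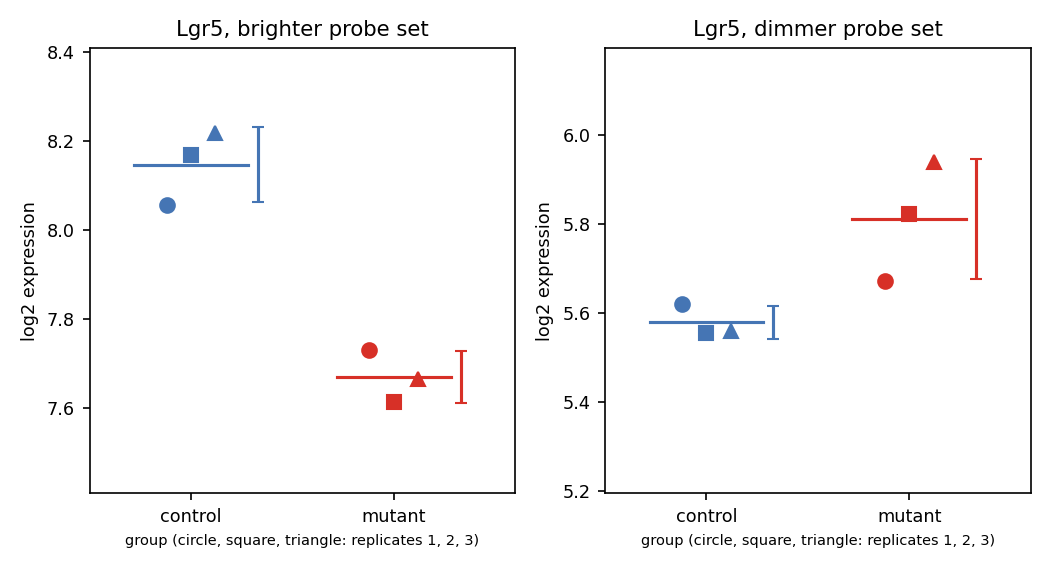
Log2 expression (vertical axes, both spanning the same range of log2 units) on the 2 probe sets of Lgr5 in control and mutant lungs. Symbols are replicates 1 to 3, horizontal lines are group means and bars are 1 SD. The brighter probe set is lower in mutants by 0.48 and the dimmer one is higher by 0.23.

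Lgr4, a broadly expressed relative of Lgr5 that binds the same ligands, overlapped between the groups. Its log2 values were 9.53, 9.56 and 9.39 in the controls and 9.55, 9.73 and 9.50 in the mutants. The log2 difference was 0.10 (SE 0.08, 95% interval -0.07 to 0.28, limma adjusted p = 0.600). Lgr6, the third receptor of the family, had values of 8.03, 8.18 and 7.95 in the controls and 7.81, 8.00 and 7.80 in the mutants. Mutant replicate 2 lay within the control range, and the log2 difference was -0.18 (SE 0.08, 95% interval -0.37 to 0.0014, limma adjusted p = 0.402).

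The receptors were also compared with each other within arrays. The log2 level of Lgr5 (brighter probe set) minus that of Lgr4 was -1.47, -1.39 and -1.17 in the controls and -1.82, -2.12 and -1.84 in the mutants, without overlap. The group means of this quantity differed by -0.58 log2 units, with a pooled SD between arrays of 0.16. Lgr5 minus Lgr6 differed by -0.29 between the groups (pooled SD 0.16), also without overlap. In each comparison the two-sided exact permutation p was 0.1, the smallest possible, and 0.15 after Benjamini-Hochberg adjustment over 3 pairs of genes, so this test cannot reach the 0.05 level with 3 arrays against 3. With both Lgr5 probe sets averaged, Lgr5 minus Lgr6 turned to 0.06 and Lgr5 minus Lgr4 was -0.22.

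Rnf43 and Znrf3, the ligases that remove Frizzled, differed by nearly the same amount. Rnf43 had log2 values of 8.95, 8.98 and 8.99 on control arrays 1 to 3, the tightest controls of the 9 genes with an SD of 0.02. Mutant arrays 1 to 3 had 8.73, 8.64 and 8.59, all below the controls. The log2 difference was -0.32 (SE 0.05, 95% interval -0.44 to -0.20, n = 3 and 3), which is 80.1% of the control mean, with a limma adjusted p of 0.109. Znrf3 had log2 values of 10.21, 10.24 and 10.11 in the controls and 9.98, 9.80 and 9.86 in the mutants, with no overlap. Its log2 difference was -0.30 (SE 0.06, 95% interval -0.45 to -0.15, n = 3 and 3), which is 81.1% of the control mean, with a limma adjusted p of 0.179. Each gave an exact permutation p of 0.1. The within-array difference of Rnf43 and Znrf3 moved by -0.02 between groups (pooled SD 0.07, exact permutation p = 0.7, adjusted over the 3 pairs 0.7), which is smaller than the spread between arrays. Both genes lie on chromosome 11, as does Fzd2. In the RefSeq gene order of mouse assembly GRCm38.p6, 337 protein-coding genes start between Rnf43 and Fzd2 and 1237 between Znrf3 and Fzd2. The other 7 genes lie on other chromosomes. Whether the floxed and control chromosomes differ elsewhere on chromosome 11 was not tested.

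**Figure D3:**
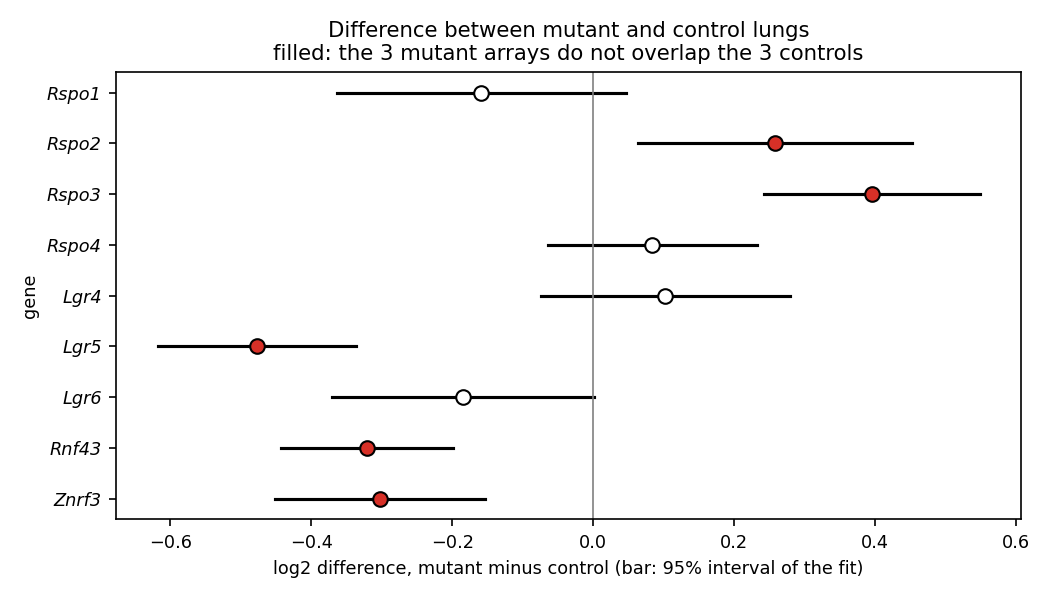
Log2 difference, mutant minus control (horizontal axis), of each gene with the 95% interval of the limma fit. Filled circles mark the 5 genes whose mutant arrays do not overlap the controls, namely Rspo2 (0.26), Rspo3 (0.40), Lgr5 (-0.48), Rnf43 (-0.32) and Znrf3 (-0.30).

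Because Lgr5, Rnf43 and Znrf3 had lower values together and are known targets of beta-catenin and its TCF partners, promoter windows were searched for the TCF motif. RefSeq windows of 300 bases, from 250 before to 50 after an annotated gene start, were at hand for 5 of the 9 genes (Lgr4, Lgr6, Rspo1, Rspo4 and Rnf43), in 6 windows because Rnf43 has a pair of starts. Of the 3 genes lower without overlap, Rnf43 is the one with a window, and the 250 bases before each of its starts on the plus strand are shown here so that the sequence behind the search can be read (RefSeq, GRCm38.p6, chr11:87662837-87663086 and chr11:87699647-87699896).
Rnf43, first start: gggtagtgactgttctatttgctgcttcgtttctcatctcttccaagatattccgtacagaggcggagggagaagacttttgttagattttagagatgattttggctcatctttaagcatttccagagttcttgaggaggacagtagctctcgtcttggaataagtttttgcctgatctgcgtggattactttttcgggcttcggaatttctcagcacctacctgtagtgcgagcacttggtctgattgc
Rnf43, second start: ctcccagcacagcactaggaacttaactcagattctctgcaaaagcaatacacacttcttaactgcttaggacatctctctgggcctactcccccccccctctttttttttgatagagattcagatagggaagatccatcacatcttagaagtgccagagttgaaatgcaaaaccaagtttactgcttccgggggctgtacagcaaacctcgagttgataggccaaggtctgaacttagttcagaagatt
The motif was searched on both strands as CAAAG preceded by any pair of A or T bases, and a match would be printed in capitals. None of the 6 windows held a match, whereas 16.9% of 32851 windows of the same length did. No match says only that these letters are not in these windows.

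The rest of the pathway was read from lists. The Wnt receptor complex list holds the 10 Frizzled genes, the coreceptors Lrp5 and Lrp6, the alternative receptors Ror1, Ror2, Ryk and Ptk7, and 3 genes that modulate the complex. Of its 19 genes, 0 passed limma's threshold in either direction. At an unadjusted p under 0.05 there were 1 lower and 1 higher, against 5.15% and 7.34% of all genes. The median log2 difference was 0.01, and that over all genes was also 0.01. Beside Fzd2, those with the smallest p were Kremen2, a receptor of the Wnt antagonists of the Dkk family (0.14, SE 0.05), Fzd3, a Frizzled of axon guidance and planar polarity (-0.12, SE 0.05), Kremen1 (-0.14, SE 0.06), Fzd5 (-0.10, SE 0.05) and Fzd4, a receptor of vascular development (0.08, SE 0.06). In this list the lowest log2 difference was that of Fzd2 itself (-0.29).

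Factors linked to R-spondin action or Frizzled turnover were read in the same way. Of 12 measured genes, 0 passed limma's threshold, and the median log2 difference was -0.01. Lower means were found in 9 and higher means in 3, where 45.2% of all genes had lower means. At an unadjusted p under 0.05, 2 were lower and 0 higher, against 5.15% and 7.34% of all genes. The smallest p values belonged to Tnfrsf19, a Wnt-induced membrane protein also called Troy (-0.16, SE 0.06), the scaffold gene Iqgap1 (-0.12, SE 0.05), the heparan sulphate proteoglycan gene Sdc4 (0.14, SE 0.07) and the deubiquitinase gene Usp42 (-0.11, SE 0.06). The Dishevelled genes, whose products link Frizzled to its ligases, had log2 differences of -0.01 (Dvl1), 0.03 (Dvl2) and -0.10 (Dvl3).

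Other feedback and target genes of beta-catenin signalling did not share the direction of Lgr5, Rnf43 and Znrf3. Of 19 measured genes outside the R-spondin system, 0 passed limma's threshold, 10 had lower and 9 higher means, and the median log2 difference was -0.01. At an unadjusted p under 0.05, 5.15% of all genes were lower and 7.34% higher. In this list there were 2 lower genes at that level, the proto-oncogene Mycn (-0.30, SE 0.06) and the cyclin gene Ccnd1 (-0.15, SE 0.05). There were 3 higher genes, the Wnt inhibitor Wif1 (0.31, SE 0.07), the transcription factor Tcf7l2 (0.19, SE 0.07) and the antagonist Dkk1 (0.27, SE 0.11). Next by p was Notum, a secreted enzyme that inactivates Wnt (0.14, SE 0.07). Axin2, the target most often used as a readout and was named here with its values known, and its log2 difference was -0.05 (SE 0.08).

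Markers of cell types moved with the groups and are given beside these results. The list of 27 epithelial markers was chosen with earlier results of these data known, so its counts are a description. All 27 were lower on average in mutant lungs, where 45.2% of all genes were. Their log2 differences had a median of -0.29 and a range of -0.66 to -0.05, and limma called 1 of them (Esrp1). Examples are the splicing regulators Esrp1 (-0.48, SE 0.05) and Esrp2 (-0.42, SE 0.05), the lung transcription factor Nkx2-1 (-0.41, SE 0.05) and the membrane protein gene Prom1 (-0.33, SE 0.05). The mean log2 level of the list was 9.18 to 9.27 in the controls, and in the mutants it had a mean of 8.95 and was below every control. Nkx2-1, which defines the lung epithelium, had log2 values above the array median on every array, so the defining marker of the labelled tissue was present. The differences of Rnf43 and Znrf3 lay close to the median of this list, and that of Lgr5 lay within its range.

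With the array's mean of the epithelial markers subtracted, the 9 genes kept the order of their differences. That mean differed between the groups by -0.28, so every gene's difference rose by the same amount. The level of each gene minus the array's mean of the 27 markers, a measure added after the data had been seen, differed between groups by -0.04 for Rnf43 and by -0.02 for Znrf3, with overlapping groups. For Lgr5 it was -1.17, -1.11 and -0.96 in the controls and -1.27, -1.25 and -1.31 in the mutants, a difference of -0.20 without overlap. The subtraction put the differences of Rspo3 and Rspo2 at 0.67 and 0.54, and those of Lgr4 and Rspo4 at 0.38 and 0.36, all 4 without overlap. The groups of Lgr4 and Rspo4 overlapped before the subtraction. The share of all genes without overlap after the subtraction was not computed, so the separations after it have no background to be read against. The differences of Lgr6 and Rspo1 changed sign, to 0.09 and 0.12, with overlapping groups. These shifts follow from the lower epithelial mean of the mutants and are not results about these genes. With the epithelial mean as a covariate in the limma fit, the log2 difference was -0.39 (SE 0.18) for Lgr5, -0.27 for Rnf43 and 0.01 (SE 0.14) for Znrf3. The epithelial mean was lower on all 3 mutant arrays than on any control, and the errors of that fit are wide, and the part of the epithelial markers in the differences was not tested further.

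**Figure D4:**
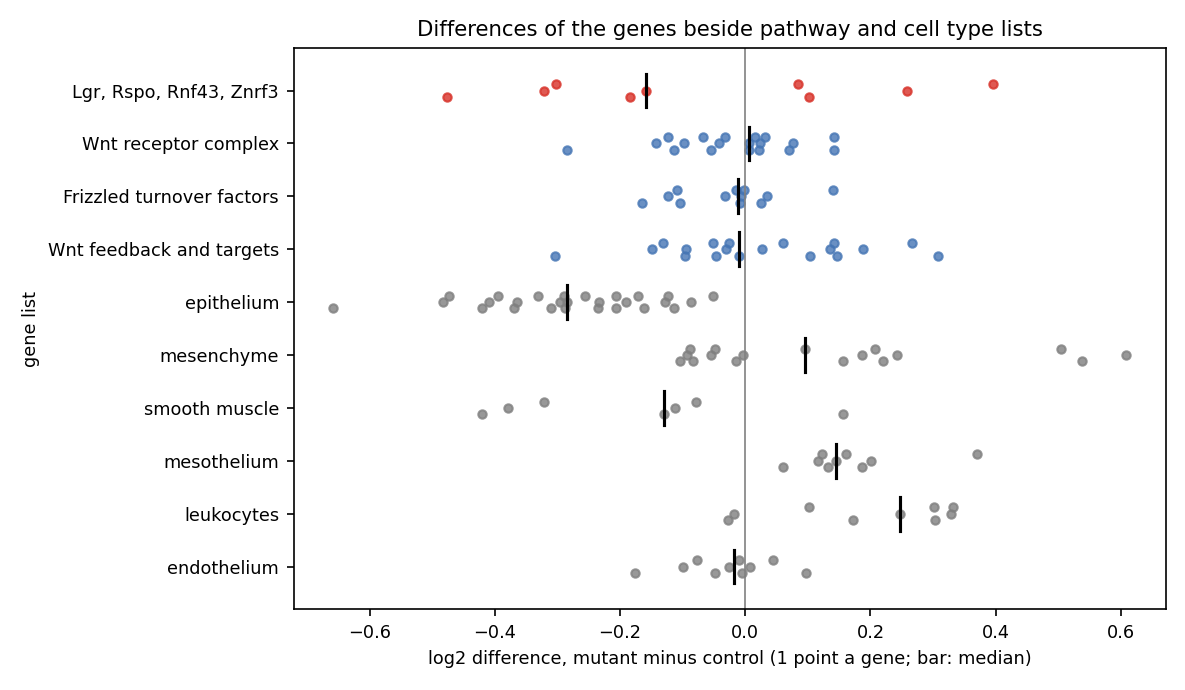
Log2 difference, mutant minus control (horizontal axis), of every measured gene of 10 lists. Each point is a gene and vertical bars are medians: the R-spondin system in red (median -0.16), the other Wnt lists in blue (medians from -0.01 to 0.01) and cell type markers in grey, with epithelium at -0.29.

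Markers of the tissues around the epithelium did not share 1 direction. Of 17 mesenchyme markers, 9 had higher and 8 lower means (median 0.10), where 54.8% of all genes had higher means. At an unadjusted limma p under 0.05, 7 were higher and 0 lower, against 7.34% and 5.15% of all genes. Without overlap between groups, 6 were higher and 0 lower, against 10.6% and 8.83% of all genes. Limma called 1 of the 17, Dcn, which encodes the small proteoglycan decorin (0.54, SE 0.05, limma adjusted p = 0.0238). The related gene Lum (0.61, SE 0.11), the homeobox gene Prrx1 (0.50, SE 0.10) and the growth factor receptor gene Pdgfra (0.19, SE 0.05) had the next smallest p. The 8 markers with lower means were Tbx4, Tbx5, Foxf1, Tcf21, Gli1, Meox2, Hoxa5 and Wnt2. Their log2 differences ran from -0.10 (Tcf21) to -0.0036 (Wnt2). Mean list levels were 10.49 to 10.50 in the controls and 10.61 to 10.66 in the mutants. All 9 mesothelial markers had higher means (median 0.14), among them Gpm6a (0.37, SE 0.06) and Upk3b (0.19, SE 0.06), and list levels of 8.59 to 8.74 in controls and 8.78 to 8.95 in mutants. Of 9 leukocyte markers, 7 had higher means (median 0.25). Of 7 smooth muscle markers, 6 had lower means (median -0.13), among them Actg2 (-0.38, SE 0.08) and Myocd (-0.42, SE 0.10). Of the mesothelial, leukocyte and smooth muscle markers, 0 passed limma's threshold. At an unadjusted limma p under 0.05, 2 of 9 mesothelial and 4 of 9 leukocyte markers were higher and 0 lower, and 4 of 7 smooth muscle markers were lower and 0 higher. The shares of all genes at that level were 7.34% higher and 5.15% lower. The medians of the endothelial, erythroid, neural crest and liver markers were -0.02, -0.05, 0.15 and 0.16. The part of these tissues in the differences of Rspo2 and Rspo3 was not tested.

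The genes whose profiles over the 6 arrays were most like those of the 3 genes with the smallest p were found by distance. Each gene's log2 values were centred on their own mean, and the root mean square distance was taken over 6 arrays to 14309 other genes. Nearest to Lgr5 were Cep112, which encodes a centrosomal protein (distance 0.038 log2 units, log2 difference -0.54, limma adjusted p = 0.0346), Lrrn3 (0.053) and Ociad2 (0.056). Nearest to Rnf43 were the chromatin remodeller gene Chd7 (0.038), the adaptor gene Pag1 (0.040) and the synaptotagmin gene Syt9 (0.041). Nearest to Rspo3 were Ptn, which encodes the heparin-binding growth factor pleiotrophin (0.043), Lratd1 (0.043) and the fatty acid receptor gene Ffar1 (0.061). These distances are descriptions that rest mostly on the difference between the groups.

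The differences were then followed through each array left out. That of Lgr5 ran from -0.52 (control replicate 1 left out) to -0.44 (control replicate 3 left out), that of Rnf43 from -0.36 to -0.29, that of Znrf3 from -0.35 to -0.26, and that of Rspo3 from 0.34 to 0.44. The smaller differences rested more on single arrays. That of Lgr4 was 0.03 with mutant replicate 2 left out and 0.05 with control replicate 3 left out. That of Lgr6 was -0.12 with control replicate 2 left out. That of Rspo1 was -0.08 with mutant replicate 1 and -0.10 with control replicate 3 left out, and that of Rspo4 was 0.04 with control replicate 3 and 0.14 with control replicate 1 left out. With both arrays rich in intestinal or adipose markers left out (control replicate 1 and mutant replicate 2), the log2 differences were -0.49 for Lgr5, -0.32 for Rnf43, -0.25 for Znrf3, 0.40 for Rspo3 and 0.28 for Rspo2, and the median of the epithelial markers was -0.18. In that reduced set 4 genes were lower and 3 higher without overlap, where 45.3% of all genes did not overlap. Lgr5 passed limma's threshold in the fits limited to genes above the 30th percentile of level (adjusted p = 0.0433) and with a robust variance model (adjusted p = 0.0454), and in no other setting tried.

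**Figure D5:**
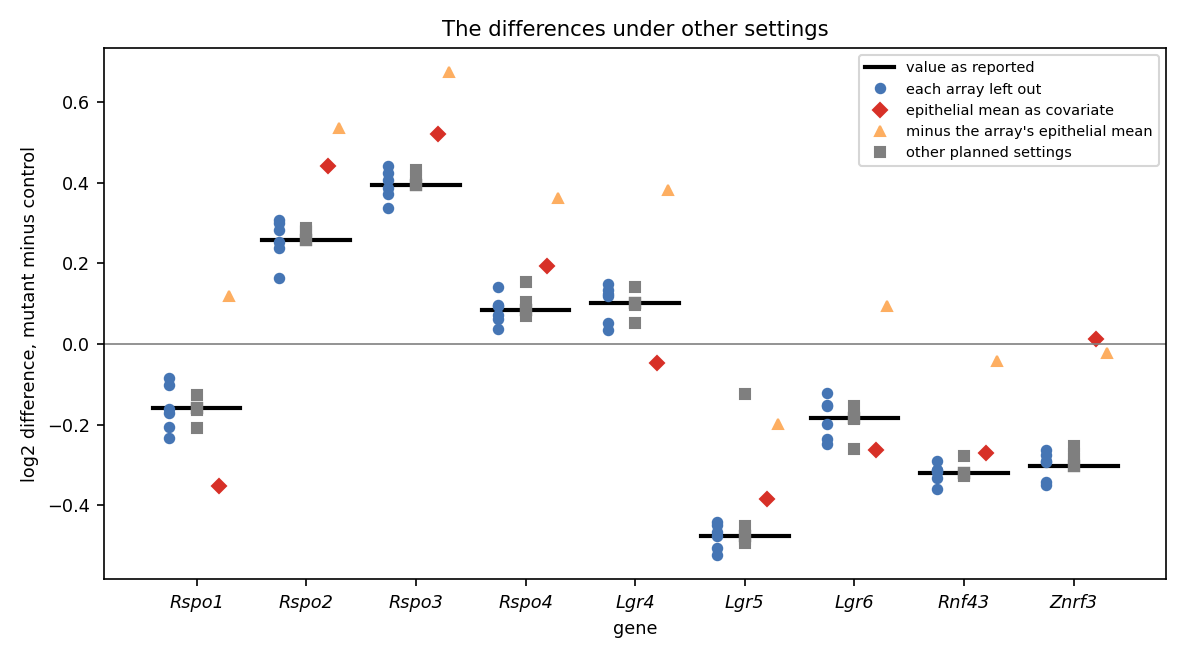
Log2 difference, mutant minus control (vertical axis), of each gene under other settings. Black bars are the reported values, circles leave out 1 array each, squares are other planned settings, diamonds add the epithelial mean as a covariate and triangles subtract it within each array. Circles of Lgr5 stay between -0.52 and -0.44, its lone square at -0.12 averages both probe sets, and triangles of Rnf43 and Znrf3 lie at -0.04 and -0.02.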

How the data were processed

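The authors deposited log2 expression values for 41345 probe sets and 6 arrays. The submitters' processing notes name oligo and RMA; 100 ng of total RNA went into each array. The sources used here give no versions, filters, probe set positions or genome build. RMA equalizes the arrays' distributions, so changes are relative to the bulk of genes and compressed for dim probe sets. The log2 scale was inferred from the range of the values.

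Probe sets with a single symbol numbered 23521, those with several 1814 and those unnamed here 16010. The brightest of each gene was used, with no filter, and 22180 genes were fitted in R 4.3.3 by limma 3.58.1 (lmFit, then eBayes; group only, two-sided, Benjamini-Hochberg adjustment over all genes, threshold 0.05). Members of lists were not adjusted over the list. On simulated data for this comparison (22180 genes), 75 of 100 genes changed by 0.5 and 94 of 100 changed by 1 on the log2 scale were recovered, with 4 false calls. The simulated noise was independent between genes, and many planted changes made the adjusted threshold easier to pass than in the real data, where 14 genes passed. The simulation therefore checks the code and does not give the power of the real fit. Single values were tested by exact permutation of the 6 arrays. Named genes are all 9 members, Fzd2, up to 6 of each Wnt list and up to 4 of each marker list by smallest p, and the 3 nearest profiles. Named besides are Axin2, Dvl1 and the mesenchyme markers with lower means. The members and lists were chosen with earlier results of these data known. Alternatives were another normalization, a filter, averaged probe sets, variance models, array weights, a replicate block, the epithelial mean as a covariate and arrays left out. P-values measure the spread between these arrays. Figures were drawn with matplotlib 3.10.9.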

Additional observations from a re-analysis of the deposited data

How the results depend on the processing

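The number of genes called over the whole table depended on the setting, from 14 as reported to 0 without any 1 of the 6 arrays (limma; at an unadjusted p under 0.05 the counts were 1797 to 3084), 0 without control replicate 1 and mutant replicate 2 together, 0 with the replicate block, 0 with the epithelial mean as a covariate, 8 after a further quantile normalization, 25 above the 30th percentile of level, 26 with a variance trend, 26 with a robust variance model and 57 at an adjusted p under 0.10. Lgr5 (-0.48) passed the threshold above the 30th percentile (adjusted p = 0.0433) and with the robust model (0.0454), over settings in which its adjusted p ran from 0.0433 to 0.881, and its second probe set turned to 0.23. With the epithelial mean as a covariate Lgr4 turned to -0.047, Znrf3 to 0.013 and Fzd2 to 0.61, and the cause was not tested. With that mean subtracted Lgr6 turned to 0.095 and Rspo1 to 0.12, because its group difference of -0.28 was taken from every gene. Lgr5 minus Lgr6 turned to 0.062 with averaged probe sets, and Rnf43 minus Znrf3 ran from -0.050 to 0.029 when 1 array was left out. Arrays with the same replicate number showed no clear likeness (correlations of deviations -0.04, -0.06 and 0.07, where other pairs ran from -0.09 to 0.14). The labels do not say whether the numbers pair the arrays. With 1 control and 1 mutant array per number, the replicate block cannot change a log2 difference, only its error. Limma's adjusted p with the block was 0.235 for Lgr5, 0.285 for Rnf43, 0.336 for Znrf3 and 0.273 for Rspo3. A further quantile normalization kept the direction of all 9 genes.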
